A study of Mus musculus with 10 samples.

Results

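Genes that mark the state of tumor-associated macrophages were examined in whole-tumor RNA. The set held Arg1, Spp1, Trem2, Apoe, Chil3, Gpnmb, Cd68 and Lyz2, 8 of the 17737 genes in the deposited count table. They were found by matching Ensembl identifiers to symbols in GENCODE vM21, a rule on names that uses no measured value. The choice of the set itself was made with earlier results of these data known. All 8 passed the filter on low counts. Each was examined as a level and as a ratio to Csf1r, the gene of the receptor for the growth factor CSF1, which monocytes and macrophages carry.

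RNA sequencing compared 5 B16-F10 tumors overexpressing IL-18 D69A, in which an aspartate of interleukin-18 is replaced by alanine (D69A tumors 1 to 5), with 5 B16-F10 tumors overexpressing wild-type IL-18 (WT tumors 2 to 6). B16-F10 is a pigmented melanoma line from the C57BL/6 mouse. In both groups the cells grew under the skin of the right flank of C57BL/6 mice and the tumors were taken on day 11. Every tumor thus carried overexpressed IL-18, and no tumor without it was analysed here. The labels give neither the promoter that drove IL-18 nor whether a line was 1 clone, and they do not give the age or sex of the mice. Clone and IL-18 form therefore cannot be told apart. The labels do not state that the samples came from separate mice, so a p-value weighs a difference against the spread between these libraries, which may be technical.

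Tumor-associated macrophages arise largely from blood monocytes and can take up several states. Arginase 1 (Arg1) and the chitinase-like protein Ym1 (Chil3) are classical marks of alternative activation in mice. Osteopontin (Spp1), the lipid receptor TREM2, apolipoprotein E (Apoe) and the glycoprotein GPNMB mark macrophages that take up lipid and cell debris. Macrosialin (Cd68), a protein of late endosomes and lysosomes, and lysozyme M (Lyz2) are carried by macrophages in general. GPNMB is also a melanosome protein, and Apoe, Spp1 and Cd68 can be transcribed by cells other than macrophages. In whole-tumor RNA, fewer cells of a type and less RNA per cell cannot be told apart.

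The tumors held between 34400949 and 37578722 counts in D69A and between 25904345 and 37556163 in WT, so that 3 counts came to between 0.0798 and 0.116 CPM (counts scaled to a common library total). Of 13798 genes tested with edgeR's quasi-likelihood test, 2594 were higher and 3410 lower in D69A tumors at an adjusted p under 0.05. Melanocyte markers stood for the labelled melanoma cells, with 13 of 17 higher in D69A and none lower, beside 18.8% and 24.7% of all genes. A set of 3 tumors had the highest levels of skeletal muscle genes (D69A tumor 1 at 5.90, WT tumor 3 at 6.82 and WT tumor 4 at 7.38 as the mean log2(CPM + 1) of the muscle genes), and without them the calls on the levels of the 8 genes were the same, while 1727 genes in place of 2594 were called higher.

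Spp1, Lyz2 and Trem2 were lower in D69A tumors by 2.57-fold, 2.75-fold and 2.09-fold, with every D69A tumor below every WT tumor. Gpnmb, Apoe and Cd68 differed by at most 1.12-fold. The mean CPM of Arg1 (8.99 in D69A, 13.4 in WT) lay near that of Trem2 (6.27 in D69A, 13.1 in WT). Chil3 and Arg1 were 2.03-fold and 1.49-fold lower and did not pass the test. So 3 of the 8 genes were called lower and none higher, against 24.7% of all genes tested called lower and 18.8% called higher. The CPM of D69A tumors lay wholly below those of WT tumors for the same 3 genes, as for 17.4% of all genes. The median log2 fold change of the 8 genes was -0.80, beside 0.00244 over all genes tested.

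**Figure D1:**
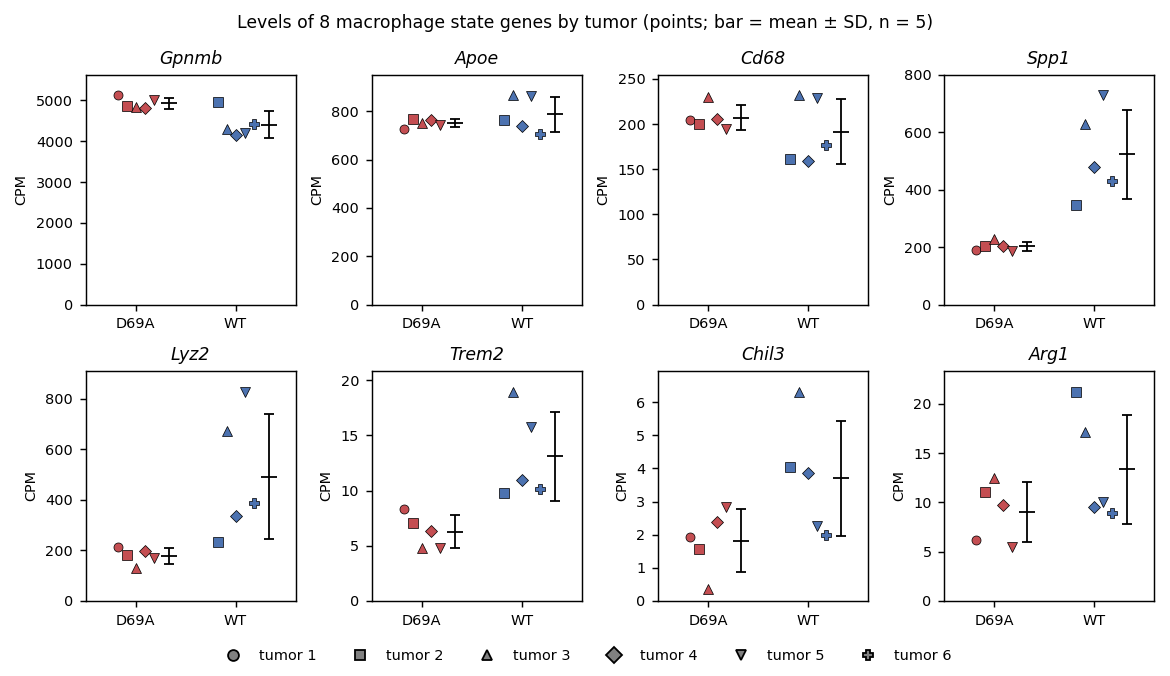
Level of each of the 8 genes in every tumor, as CPM on linear axes that start at 0, with D69A tumors left of WT tumors in each panel, points for single tumors (the same symbol for the same number) and bars for the mean ± SD of 5 tumors. Spp1, Lyz2 and Trem2 lie lower in all 5 D69A tumors than in any WT tumor, and the points of Gpnmb, Apoe, Cd68, Chil3 and Arg1 overlap.

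The 8 genes spanned a wide range of levels. On a scale per length of exon, Gpnmb stood highest, at 756 ± 20.3 CPM per kilobase in D69A tumors and 676 ± 51.1 in WT tumors (SD, n = 5 each). Gpnmb was the gene of rank 6 in the whole table by mean CPM. Apoe followed in D69A tumors with 351 ± 7.97 CPM per kilobase, against 368 ± 34.2 in WT tumors. In D69A tumors Cd68 (165 ± 10.9), Lyz2 (136 ± 24.6) and Spp1 (123 ± 9.91) came next, and the SD of each touched that of its neighbour. In WT tumors the order differed, since Lyz2 (373 ± 189) and Spp1 (317 ± 93.2) lay within their spread of Apoe, and Cd68 (152 ± 28.6) came after them. Arg1 held 4.03 ± 1.37 CPM per kilobase in D69A and 5.99 ± 2.48 in WT tumors. Trem2 (1.27 ± 0.304 in D69A, 2.65 ± 0.817 in WT) and Chil3 (1.11 ± 0.581 in D69A, 2.27 ± 1.06 in WT) closed the order. On this scale they did not differ from each other beyond their spread in either group. The merged exons span 4946 bases for Trem2 and 1632 for Chil3. In CPM Trem2 (6.27 ± 1.51 in D69A, 13.1 ± 4.04 in WT) stood above Chil3 (1.82 ± 0.949 in D69A, 3.70 ± 1.73 in WT). Per kilobase, Csf1r stood at 4.22 ± 1.37 in D69A and 12.9 ± 5.58 in WT tumors, so that 5 of the 8 genes were far more abundant than the macrophage receptor itself.

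The promoters of 4 of the genes are shown because they stand for the contrast among them, Gpnmb and Cd68 without a called change in level and Spp1 and Trem2 called lower. Each line gives the 250 bases before the transcription start annotated by RefSeq on GRCm38.p6, 5′ to 3′ on the strand of the gene. They lie at chr6:49036268-49036517 (plus strand) for Gpnmb, chr11:69666171-69666420 (minus) for Cd68, chr5:104434861-104435110 (plus) for the first of 2 Spp1 windows, and chr17:48346151-48346400 (plus) for Trem2. Capitals mark the letters TGANTCA, a loose form of the site of AP-1 factors, whose usual middle base is C or G. They also mark GAGGAA or its reverse complement, a core of sites for PU.1, the factor encoded by Spi1 on which macrophages depend.
Gpnmb: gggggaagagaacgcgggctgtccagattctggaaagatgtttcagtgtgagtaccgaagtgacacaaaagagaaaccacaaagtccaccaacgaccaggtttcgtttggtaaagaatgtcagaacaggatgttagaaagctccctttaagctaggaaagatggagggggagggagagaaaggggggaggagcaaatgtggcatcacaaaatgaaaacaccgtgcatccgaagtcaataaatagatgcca
Cd68: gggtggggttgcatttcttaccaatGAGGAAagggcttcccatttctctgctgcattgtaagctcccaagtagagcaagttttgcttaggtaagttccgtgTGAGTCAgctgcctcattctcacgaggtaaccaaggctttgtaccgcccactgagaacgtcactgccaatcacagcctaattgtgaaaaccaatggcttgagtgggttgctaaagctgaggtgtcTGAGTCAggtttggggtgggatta
Spp1: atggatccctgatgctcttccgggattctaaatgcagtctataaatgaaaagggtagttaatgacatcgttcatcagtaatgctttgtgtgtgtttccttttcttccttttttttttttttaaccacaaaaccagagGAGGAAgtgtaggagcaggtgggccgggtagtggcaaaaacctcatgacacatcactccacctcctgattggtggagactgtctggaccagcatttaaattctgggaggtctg
Trem2: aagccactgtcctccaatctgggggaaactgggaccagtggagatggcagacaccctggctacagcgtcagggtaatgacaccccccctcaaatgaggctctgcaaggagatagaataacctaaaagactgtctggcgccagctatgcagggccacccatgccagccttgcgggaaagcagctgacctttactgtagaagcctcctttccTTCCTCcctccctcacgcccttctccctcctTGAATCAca

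Windows were found for 7 of the 8 genes, 10 windows in all. TGANTCA stood in 2 of them, at 149 and 24 bases upstream of the start in Cd68 and at 9 bases upstream in Trem2, and 6.75% of all 32851 RefSeq windows held it. The Cd68 matches read TGAGTCA, and the Trem2 match reads TGAATCA, outside the usual AP-1 form. GAGGAA, searched on both strands as were all motifs, stood in 5 windows, and 23.3% of all windows held it. The 5 were Cd68 at 225, Spp1 at 113 and Trem2 at 40 bases upstream, and Apoe windows 1 and 3 at 250 and 132. Apoe thus entered this count more than once. The MITF and TFE forms CACGTG and CATGTG were in 0 of the 10 windows, against 6.02% and 12.3% of all windows. The palindromic STAT6 form was in none of the 10 (5.85% of all windows). No searched motif overlapped another in the printed windows. These matches describe letters only, and the tumor data hold no measure of binding.

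Gpnmb encodes a membrane glycoprotein of melanosomes and phagocytic macrophages (mm10 chr6:49036546-49070929, plus strand, 13 exons). Its level was 5124, 4854, 4834, 4820.3 and 5003 CPM in D69A tumors 1 to 5, against 4974, 4291, 4153, 4197 and 4417 CPM in WT tumors 2 to 6. WT tumor 2 lay among the D69A tumors, and the other 4 WT tumors lay below all of them. The mean of 4927 ± 132 CPM in D69A and 4406 ± 333 CPM in WT (SD, n = 5 each) gave a log2 fold change of 0.16 (SE 0.07, edgeR's quasi-likelihood test, adjusted p = 0.0667). DESeq2 called the same change with an adjusted p of 0.0147, and it called 21.2% of all genes higher. By limma-voom the adjusted p was 0.0492, and 19.2% of all genes were higher. Without WT tumor 2 edgeR called it too, with a log2 fold change of 0.21 and an adjusted p of 0.0129. Gpnmb took 0.486% of all counts in D69A and 0.448% in WT tumors. The 17 melanocyte markers summed to between 27650 and 35897 CPM in D69A tumors and between 18811 and 23376 CPM in WT tumors, and their part in the Gpnmb level was not tested.

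Apoe, whose product carries lipid between cells (chr7:19696109-19699188, minus strand, 5 exons), had 728, 769.9, 749.6, 764 and 742 CPM in D69A tumors 1 to 5. WT tumors 2 to 6 had 763, 866, 740.5, 864 and 705 CPM. The D69A tumors sat inside the WT range, with a coefficient of variation of 2.27% against 9.29% in WT tumors. The log2 fold change was -0.07 (SE 0.07, edgeR's quasi-likelihood test, adjusted p = 0.414).

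Cd68 (chr11:69664213-69666153, minus strand, 6 exons) had 204, 200.1, 229.9, 206 and 194 CPM in D69A tumors and 162, 232, 159, 229 and 176 CPM in WT tumors. WT tumors 3 and 5 lay with D69A tumor 3 at the top, and WT tumors 2, 4 and 6 lay below every D69A tumor. The log2 fold change was 0.11 (SE 0.11, edgeR's quasi-likelihood test, adjusted p = 0.454). Apart from Mertk, Cx3cr1 and Cd14, the other pan-macrophage genes tested were all lower in D69A tumors.

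Spp1 encodes osteopontin, a secreted matrix protein and cytokine (chr5:104435118-104441050, plus strand, 8 exons, 18.8% of whose length is shared with Gm42793 on the same strand). Its level was 191, 204, 229, 204 and 186 CPM in D69A tumors, against 347, 628, 479, 727 and 429.5 CPM in WT tumors. The groups did not overlap, and the highest and lowest tumor differed by 1.23-fold within D69A and by 2.09-fold within WT. The mean was 203 ± 16.3 CPM in D69A and 522 ± 154 CPM in WT tumors, a log2 fold change of -1.36 (SE 0.18, edgeR's quasi-likelihood test, adjusted p = 0.000518). Fibroblast markers moved the same way, with 14 of 15 called lower, beside 24.7% of all genes. Their summed level was 486 to 1657 CPM in D69A tumors and 2710.1 to 6770.5 CPM in WT tumors. Their part in the Spp1 level was not tested.

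Lyz2, lysozyme M of macrophages, monocytes and neutrophils (chr10:117277331-117282321, minus strand, 4 exons), had 215, 184, 129, 197 and 168 CPM in D69A tumors and 235, 672, 334, 827 and 388 CPM in WT tumors. WT tumor 2 was close to D69A tumor 1, and WT tumors 3 and 5 were the highest. The mean was 179 ± 32.3 CPM in D69A and 491 ± 248 CPM in WT tumors, a log2 fold change of -1.46 (SE 0.31, edgeR's quasi-likelihood test, adjusted p = 0.00362). The neighbouring and near-identical gene Lyz1, between which and Lyz2 the authors' counting could split reads, averaged 3.42 ± 0.567 CPM in D69A and 11.7 ± 7.73 CPM in WT tumors (log2 fold change -1.77, edgeR's quasi-likelihood test, adjusted p = 0.00364).

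Trem2, a receptor for lipids and lipoproteins on macrophages (chr17:48346401-48354147, plus strand, 5 exons), had 8.34, 7.02, 4.81, 6.36 and 4.83 CPM in D69A tumors, against 9.77, 18.9, 10.9, 15.7 and 10.2 CPM in WT tumors. D69A tumor 1 came closest to the WT tumors, and WT tumors 3 and 5 stood above the other WT tumors, as they did for Lyz2, Spp1 and Cd68. The mean was 6.27 ± 1.51 CPM in D69A and 13.1 ± 4.04 CPM in WT tumors, a log2 fold change of -1.06 (SE 0.23, edgeR's quasi-likelihood test, adjusted p = 0.00367). Tested against a fold of 1.5 in place of no change, Trem2 was no longer called (adjusted p = 0.0561).

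The alternative activation marks were low and variable. Chil3 (chr3:106147554-106167564, minus strand, 11 exons) had 1.92, 1.56, 0.36, 2.40 and 2.85 CPM in D69A tumors and 4.06, 6.31, 3.85, 2.28 and 1.99 CPM in WT tumors. The lowest of these, D69A tumor 3, rested on 12 counts (exact Poisson 95% interval 6.20 to 21.0 counts, counting error only). WT tumors 5 and 6 lay within the D69A range, and 3 of 5 D69A tumors lay below the lowest WT tumor. The log2 fold change was -1.02 (SE 0.47, edgeR's quasi-likelihood test, adjusted p = 0.102). Its near-identical relative Chil4 was not analysed here.

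Arg1, the enzyme that splits arginine into ornithine and urea (chr10:24915221-24927484, minus strand, 7 exons), had 6.23, 11.1, 12.4, 9.76 and 5.43 CPM in D69A tumors. WT tumors had 21.2, 17.2, 9.48, 9.99 and 8.91 CPM. WT tumors 2 and 3 were high and the other 3 lay among the D69A tumors. The log2 fold change was -0.57 (SE 0.30, edgeR's quasi-likelihood test, adjusted p = 0.150). Neutrophils can also carry Chil3 and Arg1. Of 15 neutrophil markers, 13 were analysed and 4 had enough counts to be tested, of which 3 were lower and Mmp8 was not called. The share of all genes called lower was 24.7%. Csf3r averaged 1.85 ± 0.922 CPM in D69A and 8.21 ± 3.79 CPM in WT tumors, and Mmp9 averaged 1.02 ± 0.414 CPM in D69A and 3.30 ± 2.44 CPM in WT tumors. The 13 summed to 3.51 to 5.43 CPM in D69A tumors and 8.50 to 23.1 CPM in WT tumors. Mpo and Ltf had 0 counts in all D69A tumors together, against 4 and 16 in the WT tumors, and S100a8 had 9 counts in D69A and 53 in WT. S100a9, whose protein pairs with that of S100a8, went the other way, with 55 counts in D69A and 43 in WT. The part of neutrophils in the Chil3 and Arg1 levels was not tested.

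**Figure D2:**
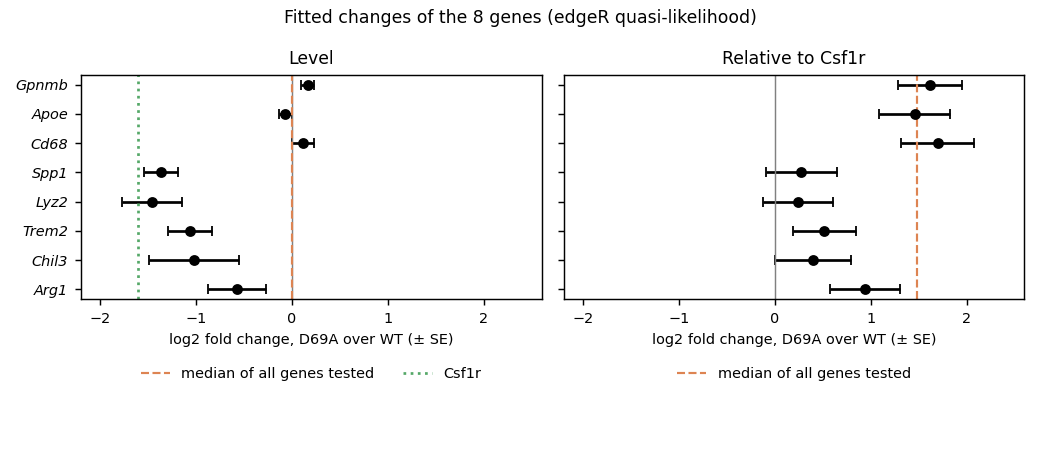
Log2 fold change in level (D69A over WT) of the 8 genes on the left and relative to Csf1r on the right, with bars for the SE, a dashed line for the median of all genes tested and a dotted line for Csf1r. In level Spp1, Lyz2 and Trem2 lie between -1.46 and -1.06, and relative to Csf1r Gpnmb, Apoe and Cd68 lie between 1.46 and 1.70.

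Csf1r itself, the measure against which the genes were set, had 37.6, 18.9, 18.4, 21.6 and 25.3 CPM in D69A tumors and 42.5, 104, 48.9, 113 and 63.1 CPM in WT tumors. All D69A tumors lay below all WT tumors, with D69A tumor 1 nearest to WT tumor 2. Of its exon length, 15.1% lies opposite a gene on the other strand, whose reads could be counted with it if strand was not used. The fold was 3.05 (log2 fold change -1.61, SE 0.30, edgeR's quasi-likelihood test, adjusted p = 0.00196). Because Csf1r was lower, a gene with an equal level in both groups had a higher ratio to it in D69A tumors, and the median gene stood 1.49 higher on the log2 scale relative to Csf1r. With the Csf1r count in place of the library size, edgeR's quasi-likelihood test called 79.8% of all genes higher and 4.78% lower.

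Against that background, 4 of the 8 genes were called higher relative to Csf1r and none lower, and their median was 0.73. For Spp1, Lyz2 and Trem2, lower in level, a difference in the ratio to Csf1r did not pass either test. Spp1 stood at 509, 1078, 1245, 945 and 735 counts per 100 Csf1r counts in D69A tumors and 818, 606, 978, 643 and 681 in WT tumors. D69A tumor 1 was below all WT tumors and D69A tumors 2 and 3 were above them. The log2 difference in ratio was 0.23 (two-sided exact permutation test over 252 assignments, p = 0.397), and edgeR gave 0.28 (SE 0.37, adjusted p = 0.481).

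Lyz2 had 572, 969.6, 705, 910.3 and 665 counts per 100 Csf1r counts in D69A tumors and 553, 648, 682, 731 and 615 in WT tumors. The groups overlapped, and WT tumors differed by far less in this ratio than in level. The log2 difference was 0.22 (exact permutation, p = 0.222), and edgeR gave 0.24 (SE 0.36, adjusted p = 0.532). Trem2 had 22.2, 37.1, 26.2, 29.5 and 19.1 counts per 100 Csf1r counts in D69A tumors, against 23.0, 18.3, 22.4, 13.9 and 16.1 in WT tumors. Of the D69A tumors, 3 lay above the highest WT tumor. The log2 difference was 0.51 (exact permutation, p = 0.0556), and edgeR gave 0.52 (SE 0.32, adjusted p = 0.131). For Trem2 the call depended on the gene chosen to stand for macrophages. The mean log count of the pan-macrophage list was also used, without Cd68 and Lyz2 but with Csf1r still in it. With this mean in place of Csf1r alone the log2 difference of 0.57 had an exact permutation p of 0.00794. For the same choice edgeR gave 0.58 with an adjusted p of 0.0411. With the pan-leukocyte gene Ptprc in place of Csf1r all 3 genes were called higher in D69A tumors, at 0.99 (Spp1, edgeR's quasi-likelihood test, adjusted p = 0.0280), 0.91 (Lyz2, 0.0375) and 1.16 (Trem2, 0.00153). Most genes were called higher in such fits. The 7 alternatives to the Csf1r fit, those with the pan-macrophage mean and Ptprc among them, called 11044 to 11811 genes higher. The Csf1r fit itself called 11004 of 13797 higher.

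Gpnmb, Apoe and Cd68 had ratios to Csf1r that did not overlap between the groups, as did 64.5% of all genes in that direction. Gpnmb averaged 21539 ± 5151 counts per 100 Csf1r counts in D69A tumors and 7009 ± 3295 in WT tumors (SD, n = 5 each), and edgeR gave a log2 difference of 1.62 (SE 0.33, adjusted p = 4.6e-05). Apoe averaged 3311 ± 902 in D69A and 1205 ± 443 in WT tumors, with 1.46 on the log2 scale (SE 0.37, edgeR, adjusted p = 0.000288). Cd68 averaged 915 ± 272 in D69A and 282 ± 73.1 in WT tumors, with 1.70 on the log2 scale (SE 0.38, edgeR, adjusted p = 8.7e-05). Their exact permutation p of 0.00794 was the smallest that 252 assignments can give. All these differences lay near the 1.49 of the median gene.

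The marks of alternative activation were more scattered. Chil3 had 5.12, 8.24, 1.96, 11.1 and 11.3 counts per 100 Csf1r counts in D69A tumors and 9.55, 6.09, 7.87, 2.01 and 3.15 in WT tumors. The groups overlapped widely, with a log2 difference of 0.38 (exact permutation, p = 0.540) and 0.40 by edgeR (SE 0.40, adjusted p = 0.340). Arg1 had 16.6, 58.5, 67.8, 45.2 and 21.4 counts per 100 Csf1r counts in D69A tumors and 49.9, 16.6, 19.4, 8.82 and 14.1 in WT tumors. D69A tumors 2, 3 and 4 and WT tumor 2 stood above the rest. The 2 tests differed, with a log2 difference of 0.999 and an exact permutation p of 0.0873, and a call by edgeR at 0.94 (SE 0.36, adjusted p = 0.0140). That call was lost without D69A tumor 2 (0.79, adjusted p = 0.0565) or D69A tumor 3 (0.70, adjusted p = 0.0828), and without WT tumor 2 the difference was 1.51.

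**Figure D3:**
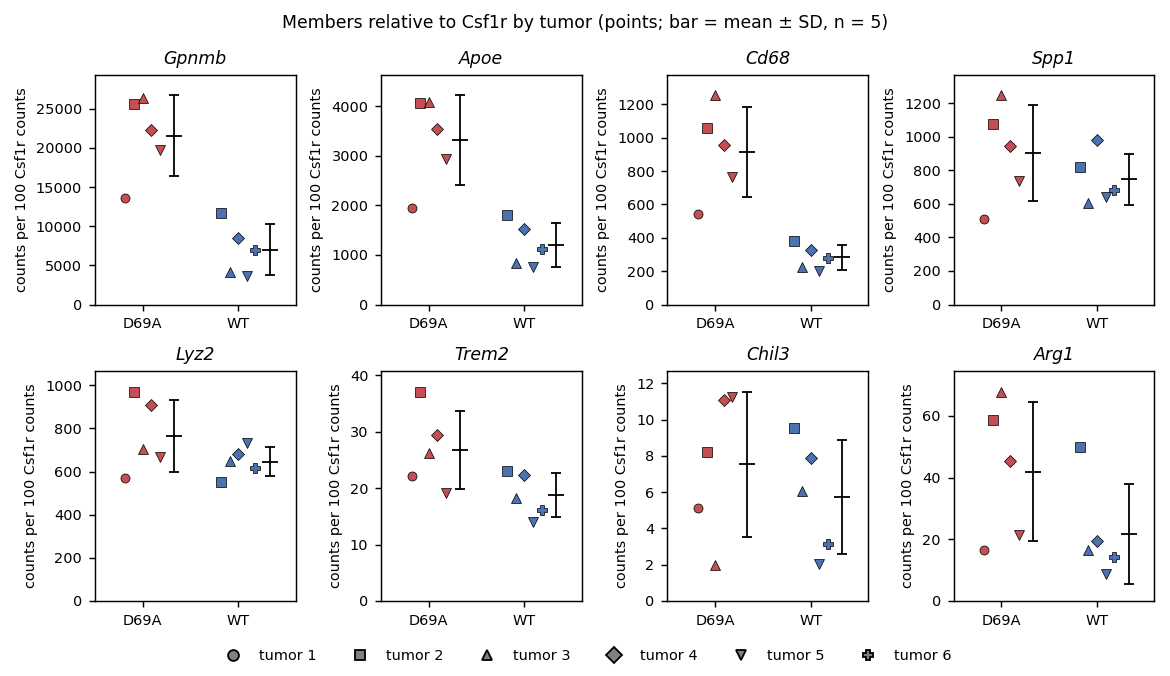
Counts of each of the 8 genes per 100 Csf1r counts in every tumor, on linear axes that start at 0, with D69A tumors left of WT tumors, points for single tumors and bars for the mean ± SD of 5 tumors. Gpnmb, Apoe and Cd68 lie higher in all 5 D69A tumors than in any WT tumor, and the other 5 genes overlap.

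Other genes of the same cells and pathways were read from lists, which were also chosen with earlier results of these data known. Among 19 pan-macrophage genes, 15 were called lower in D69A tumors and none higher (median log2 fold change -1.72), beside 24.7% and 18.8% of all genes. They included Fcgr1, a high-affinity receptor for IgG (9.60 ± 3.16 CPM in D69A and 40.2 ± 12.2 CPM in WT, 4.19-fold lower), and Spi1, the gene of PU.1 (12.2 ± 4.92 CPM in D69A and 52.0 ± 20.8 CPM in WT, 4.26-fold lower). The 4 that were not called were Cd68, Mertk (14.3 ± 1.69 CPM in D69A and 14.8 ± 1.92 CPM in WT), Cx3cr1 and Cd14. Without Cd68 and Lyz2, the list summed to 299 to 678 CPM in D69A tumors and 833 to 2143 CPM in WT tumors. Relative to Csf1r, 3 of 18 were called higher and 1, Aif1, lower (median -0.16), beside 79.8% and 4.78% of all genes.

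Of 24 genes of lipid-associated and phagocytic macrophages, 15 were lower and 3 higher (median -0.57), beside 24.7% and 18.8% of all genes. Besides Spp1 and Trem2, the lower genes included Axl, a receptor for the uptake of dying cells (63.1 ± 4.97 CPM in D69A and 139 ± 33.3 CPM in WT, 2.21-fold), the cholesterol exporter Abcg1 (4.69-fold) and the fatty acid transporter Cd36 (2.96-fold). The 3 higher genes were Fabp5, a fatty acid binding protein (937 ± 70.7 CPM in D69A and 644 ± 112 CPM in WT, 1.45-fold), and the tetraspanins Cd9 (1.17-fold) and Cd63 (1.19-fold). All 3 stood far above Csf1r in CPM, and the part of melanoma cells in their levels was not tested. Relative to Csf1r, 14 of the 24 were called higher and 3 lower (median 1.04), where 79.8% of all genes were called higher and 4.78% lower (median 1.49).

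The TREM2 receptor signals through the adaptor DAP12, encoded by Tyrobp, and the kinase SYK. Of 16 genes of this route, 12 were lower and 2 higher (median -1.09), beside 24.7% and 18.8% of all genes. Tyrobp was 3.74-fold lower (12.8 ± 4.22 CPM in D69A and 48.0 ± 16.8 CPM in WT), the phosphatase gene Inpp5d, which restrains the signal, 4.40-fold, Ms4a4a 3.02-fold and the PI3 kinase subunit Pik3cd 1.99-fold. The higher genes were Adam10 (308 ± 36.7 CPM in D69A and 233 ± 15.0 CPM in WT, 1.32-fold) and Adam17 (131 ± 5.44 CPM in D69A and 115 ± 7.43 CPM in WT, 1.13-fold), the proteases that shed TREM2 from the cell surface. Relative to Csf1r, 6 of the 16 were called higher and none lower (median 0.51), against 79.8% of all genes called higher and 4.78% lower.

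Of 20 tested genes of alternative activation, 15 were lower and none higher (median -1.74), beside 24.7% and 18.8% of all genes. Arg1 and Chil3 were among the 5 that were not called. The lower genes included the transcription factor Egr2 (3.33-fold), the ligand PD-L2 encoded by Pdcd1lg2 (6.19-fold), the chemokine Ccl22 (4.95-fold) and the lectin Clec10a (5.54-fold). Irf4 went the other way without passing the test (17.3 ± 3.57 CPM in D69A and 12.3 ± 3.60 CPM in WT, edgeR's quasi-likelihood test, adjusted p = 0.0740). The part of melanoma cells in the Irf4 level was not tested. Of 20 genes of interferon-responsive and inflammatory macrophages, 19 were lower and none higher (median -1.82), against the same shares of all genes. Examples were the costimulatory receptor Cd40 (6.65-fold), the GTPase gene Gbp2 (4.92-fold), and the chemokines Cxcl10 (3.71-fold) and Ccl7 (2.87-fold). In the fit relative to Csf1r, 4 of the 20 alternative activation genes were higher and 4 lower (median -0.02), and 2 of the 20 interferon and inflammatory genes were higher and 7 lower (median -0.21). Over all genes 79.8% were higher and 4.78% lower in that fit.

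Monocyte genes showed the same direction, with 13 of 15 lower and none higher (median -2.10), beside 24.7% and 18.8% of all genes. Ly6c2, a surface mark of inflammatory monocytes in mice, was 6.31-fold lower (7.80 ± 3.45 CPM in D69A and 49.3 ± 17.4 CPM in WT), and Ms4a4c and Plac8 were 6.22-fold and 5.48-fold lower. Nr4a1 stood at 85.6 ± 7.27 CPM in D69A and 73.6 ± 17.8 CPM in WT without a call. Set against Csf1r, 1 of the 15 was higher and 7 were lower (median -0.54), beside 79.8% and 4.78% of all genes.

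**Figure D4:**
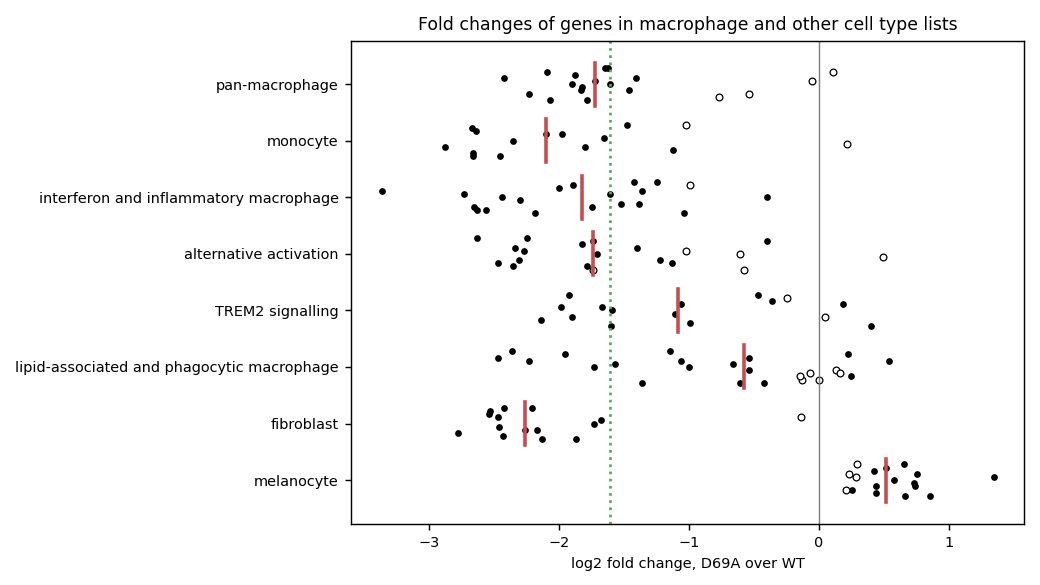
Log2 fold change in level (D69A over WT) of every tested gene of the macrophage lists and of the monocyte, fibroblast and melanocyte lists, with filled points for genes at an adjusted p under 0.05, a red bar for the median of each list and a dotted line for Csf1r. The macrophage and monocyte lists have medians from -0.57 to -2.10, and the melanocyte list has a median of 0.52.

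Genes that act with osteopontin, arginase and ApoE were read in the same way, against 18.8% of all genes called higher and 24.7% lower. Of 9 tested receptors of osteopontin, the integrin gene Itga9 was higher (1.41-fold) and Itgb3 lower (1.63-fold), and Cd44 stood at 443 ± 18.1 CPM in D69A and 444 ± 12.4 CPM in WT (median -0.03). Of 13 genes of arginine uptake and use, 4 were higher and 3 lower (median -0.03). The arginine transporter Slc7a1 was 1.42-fold higher and Oat, which degrades ornithine, 1.36-fold higher, while Nos2, the inducible nitric oxide synthase that competes with arginase, was 3.36-fold lower and Ass1, which rebuilds arginine, 1.40-fold lower. Of 15 genes of ApoE uptake and lipid efflux, 3 were higher and 6 lower (median -0.33). The receptor gene Lrp8 was 1.42-fold higher and Sort1 was higher too (389 ± 54.7 CPM in D69A and 194 ± 30.1 CPM in WT), and the sterol-sensing receptor Nr1h3, which drives efflux genes, was 5.55-fold lower.

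Within the groups the genes did not vary alike. After each group's mean was taken off, log2 CPM of Lyz2 followed Csf1r over the 10 tumors (Pearson's r = 0.90, Spearman's rho = 0.92, and r = 0.89 without the 2 tumors farthest in Csf1r). Trem2 (r = 0.78, rho = 0.73, 0.68 without those tumors), Cd68 (0.70, 0.66 and 0.73) and Spp1 (0.65, 0.45 and 0.66) came next. Apoe was at 0.54 (0.42 and 0.58) and Chil3 at 0.20 (0.22 and 0.44). Gpnmb (-0.27, -0.14 and -0.38) and Arg1 (-0.40, -0.43 and -0.17) had the opposite sign. Other marker lists varied along with Csf1r, which itself had r = 0.94 with the mean of the fibroblast markers and 0.86 with that of the neutrophil markers. The neutrophil mean rested only on the 4 markers with enough counts to be tested. With the neutrophil mean, Trem2 was at 0.81, Lyz2 at 0.81, Apoe at 0.75 and Cd68 at 0.70. Spp1 was at 0.56, Chil3 at 0.47, Arg1 at -0.05 and Gpnmb at -0.10 with it. With the fibroblast mean Lyz2 was at 0.72, Trem2 at 0.66, Cd68 at 0.58 and Spp1 at 0.54. Apoe was at 0.38, Chil3 at 0.15, Gpnmb at -0.17 and Arg1 at -0.45 with that mean. The part of these cell types in the covariation was not tested. Against the mean of the melanocyte markers the signs turned round, at -0.91 for Lyz2, -0.79 for Trem2 and 0.32 for Gpnmb. Arg1 was at 0.49 with this mean, Spp1 at -0.63, Cd68 at -0.56, Apoe at -0.49 and Chil3 at -0.18. The values share library and scaling and are descriptions of these 10 tumors.

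The 3 genes most like each member over the 10 tumors, by the same deviations, were taken from 10586 genes with at least 5 CPM. How high r would reach by chance among so many candidates was not tested. For Lyz2 they were Igf1 (r = 0.995, rho = 0.99), Rab8b (0.974, rho = 0.96) and Synpo (0.974, rho = 0.94). For Spp1 they were Lgals3 (r = 0.994, rho = 0.94), which encodes the lectin galectin-3, Gng2 (0.984, rho = 0.85) and Parp4 (0.981, rho = 0.89). For Trem2 they were Arhgap25 (r = 0.978, rho = 0.92), Pla2g7 (0.974, rho = 0.95) and Pnp (0.967, rho = 0.99). Igf1, a growth factor, was 3.06-fold lower and Lgals3 1.58-fold lower in D69A tumors. For these 9 genes r stayed between 0.932 and 0.993 without the 2 farthest tumors.

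For the other 5 genes the most similar genes were listed in the same way. For Gpnmb, Marcksl1 (r = 0.952), Gar1 (0.945) and Zfp143 (0.944) had r between 0.706 and 0.795 without the 2 farthest tumors. For Apoe the 3 genes were Kif13b (r = 0.962), Snrk (0.942) and Carhsp1 (0.924), and for Cd68 Tnks1bp1 (0.962), Arpc2 (0.961) and Sun2 (0.957). Without the 2 farthest tumors r was 0.835 to 0.898 for Apoe and 0.890 to 0.969 for Cd68. Chil3 was most like Gatd1 (0.909), Cutc (0.894) and Eml3 (0.888), and Arg1 most like Zfp410 (0.865), As3mt (0.860) and Nfib (0.846). Without the 2 farthest tumors r fell to between 0.651 and 0.761 for Chil3 and between 0.756 and 0.833 for Arg1.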

How the data were processed

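Total RNA of 10 B16-F10 tumors was sequenced. The authors deposited whole-number counts per Ensembl gene, without scaling. The submitters' processing notes name fastp, HISAT, Bowtie, RSEM and mm10. Their roles and versions are not given in any source used here. Because RSEM estimates counts, the deposited values may be rounded and reads of near-identical genes split. The use of strand is not given, so reads of overlapping genes cannot be told apart by it. Symbols matched 17670 identifiers and not 67, and 40 genes had 0 counts throughout.

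The members and lists were chosen with earlier results of these data known. Counts were filtered with filterByExpr, scaled by TMM and tested with edgeR's quasi-likelihood test (edgeR 4.0.16, R 4.3.3) with Benjamini-Hochberg adjustment over all genes, threshold 0.05. SEs came from the F statistic. The fit relative to Csf1r used the Csf1r count as library size. Per-tumor log2 ratios, with 0.5 added to both counts, had an exact permutation test of the mean difference, two-sided and unadjusted. The edgeR fits, in level and relative to Csf1r, were run on simulated counts in which Csf1r was unchanged, unlike in these tumors. The exact permutation test was not checked in this way. CPM used the TMM factors, and lengths were merged exons of GENCODE vM21. Counting intervals and floors cover counting error only.

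Named were the 8 genes and Csf1r, up to 4 genes of each list with the smallest p and a mean of at least 1 CPM, genes against their list's direction, the 3 genes most like each member, and Lyz1. Cx3cr1, Cd14, Aif1, S100a8, S100a9, Mmp8, Mpo, Ltf, Cd44 and Mertk were added after their values were seen. Alternatives were DESeq2 1.42.0, limma-voom (limma 3.58.1), other scalings, filters and thresholds, other genes in place of Csf1r, leaving out single tumors, and a replicate block. Some planned results, among them 1 alternative to Csf1r, are not reported here. An alternative without the 3 tumors highest in muscle genes was added after seeing the data. Libraries of 1 group all differed beyond sampling noise, with a chi-square per degree of freedom of at least 13.9, and each counted as 1 replicate.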

Additional observations from a re-analysis of the deposited data

Results flagged for a closer look

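Of 34 sets of 5 values examined (9 levels and 8 ratios in each group), 1 held a tumor far from the others. In the WT group, Arg1 stood at 49.9 counts per 100 Csf1r counts in WT tumor 2, against 8.82 to 19.4 in the other 4 WT tumors. Its gap to the nearest value was 0.743 of the whole range, above Dixon's critical value of 0.71. Chance alone marks about 1 in 20 such sets.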

How the results depend on the processing

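Of 612 alternative values, 584 kept their direction and their side of the threshold, or stayed within 1.5 times for a count, and none turned round. The calls of Spp1, Lyz2 and Trem2 in level held without each tumor in turn (log2 fold changes of -1.48 to -1.18, -1.63 to -1.15 and -1.17 to -0.88). The numbers of genes called were 1334 higher at an adjusted p of 0.01, 60 higher and 1800 lower against a fold of 1.5, and 1727 higher without the 3 muscle-high tumors. Against a fold of 1.5, Trem2 in level was -1.06 (edgeR, adjusted p = 0.0561) and 8 lipid-associated genes were lower. Gpnmb in level was 0.16 by limma-voom (adjusted p = 0.0492) and 0.16 by DESeq2 (adjusted p = 0.0147), and 0.15 to 0.21 without single tumors, called without WT tumor 2.

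With other genes in place of Csf1r, 422 (Adgre1) and 100 (Ptprc) genes were called lower relative to them. Over the 7 alternatives to the Csf1r fit, these among them, 11044 to 11811 genes were called higher. With Ptprc, edgeR gave 0.99 for Spp1, 0.91 for Lyz2, 1.16 for Trem2 and 1.13 for Chil3 (adjusted p from 0.00153 to 0.0375), and the exact permutation test gave 0.90 for Spp1, 0.89 for Lyz2, 1.17 for Trem2 and 1.67 for Arg1 (p from 0.00794 to 0.0397). Trem2 passed with the pan-macrophage mean (0.58 by edgeR, 0.57 by exact permutation) and with Adgre1 (0.69, exact permutation). Without single tumors, Arg1 relative to Csf1r was 0.70 to 1.51 by edgeR and lost its call without D69A tumor 2 or 3. By exact permutation Arg1 was 0.74 to 1.36, past the threshold without WT tumor 2, and Trem2 was 0.38 to 0.62, past it without D69A tumor 5 or WT tumor 2 or 4. The cause of these changes was not tested.

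Tumors of the same number did not deviate together (r = 0.18, -0.44, 0.19 and 0.17 for numbers 2 to 5), and no D69A tumor correlated best with its own number. With the replicate block over these 4 pairs, 2246 genes were higher and 3218 lower, and Spp1, Lyz2 and Trem2 were called at -1.36, -1.45 and -1.23. The exact permutation test was not run within pairs, since 4 pairs cannot reach 0.05. Depth limits Chil3 most, which rested on 12 to 105 counts in D69A and 52 to 231 in WT tumors.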
